A study of Mus musculus with 3 samples.

Results

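Accessible chromatin was compared between 1 ATAC-seq library of mouse embryonic stem cells expressing Halo-Sox2 and 1 library of control cells, 2 of the 3 libraries of the series. The members were chosen by sample label: the peak list of the Halo-Sox2 line SES4.1 and that of the control line SES11, both lines derived from the embryonic stem cell line CGR8. Peaks of these 2 lists that overlapped by at least 1 bp were merged into regions. A region was gained when it held only Halo-Sox2 peaks, lost when it held only control peaks, and shared when it held both.

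ATAC-seq uses the Tn5 transposase to insert sequencing adapters into open DNA. SES4.1 carries a doxycycline-inducible transgene for Sox2 fused to the self-labelling Halo tag. It received 300 ng/mL doxycycline for 20 h. Halo-SiR, a dye that binds the tag, was then added at 50 nM, and fluorescent cells were collected by FACS. SES11 is labelled only as a control, and its own labels name no transgene, doxycycline, staining or sorting, so effects of the transgene, drug, stain, sort and line cannot be told apart. Both lines were grown in serum with leukemia inhibitory factor and inhibitors of GSK3 and MEK, conditions that hold embryonic stem cells in the naive pluripotent state. About 50000 cells entered each transposition, and reads were paired at 75 bp. The labels do not say whether each line is 1 clone. With 1 library a side there is no replicate error: every difference below is between 2 libraries, and no test was run. The depth of the libraries is unknown.

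Sox2 is a transcription factor of the SOX family whose HMG box binds the minor groove of DNA and bends it. In embryonic stem cells it acts with Oct4, the product of Pou5f1, often at joined SOX and octamer sites, and it helps to keep these cells pluripotent. It is also a central factor of neural progenitors. It is counted among the pioneer factors, which can reach sites in closed chromatin.

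Sequences of promoters with a gained or lost peak are shown first. The stretches below are the 250 bases before a RefSeq transcription start (GRCm38.p6, the assembly of mm10), written 5′ to 3′ on the strand of the gene. Capitals mark a SOX core, CATTGT or CTTTGT on either strand, and in Nanog also the adjoining part of an octamer. The first 3 are among the highest-ranked gained promoters with such a core before the start. They belong to 4930522H14Rik (chr4:109531205-109531454, minus strand), Prr5l (chr2:101883028-101883277, minus strand) and 1700016D06Rik (chr8:11678750-11678999, minus strand).
4930522H14Rik: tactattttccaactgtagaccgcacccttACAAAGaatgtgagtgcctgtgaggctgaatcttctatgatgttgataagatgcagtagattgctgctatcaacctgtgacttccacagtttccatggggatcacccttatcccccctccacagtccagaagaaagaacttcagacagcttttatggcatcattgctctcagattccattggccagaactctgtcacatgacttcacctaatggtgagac
Prr5l: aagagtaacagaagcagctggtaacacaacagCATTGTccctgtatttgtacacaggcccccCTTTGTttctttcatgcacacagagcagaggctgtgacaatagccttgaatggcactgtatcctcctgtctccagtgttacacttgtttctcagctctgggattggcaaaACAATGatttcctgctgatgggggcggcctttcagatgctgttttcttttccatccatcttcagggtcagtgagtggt
1700016D06Rik: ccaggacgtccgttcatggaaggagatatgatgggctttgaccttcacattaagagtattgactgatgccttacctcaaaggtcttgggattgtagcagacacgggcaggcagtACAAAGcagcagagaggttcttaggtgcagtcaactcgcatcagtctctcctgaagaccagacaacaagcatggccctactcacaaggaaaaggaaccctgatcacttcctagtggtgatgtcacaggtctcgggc

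Dcx, which encodes a microtubule-binding protein of migrating neurons, is shown because its promoter was gained (chrX:143933125-143933374, minus strand). Zfand6 (chr7:84679397-84679646, minus strand) is among the highest-ranked lost promoters with a core. Nanog (chr6:122707239-122707488, plus strand), a core pluripotency factor, is shown because its promoter was lost and holds a joined SOX and octamer site.
Dcx: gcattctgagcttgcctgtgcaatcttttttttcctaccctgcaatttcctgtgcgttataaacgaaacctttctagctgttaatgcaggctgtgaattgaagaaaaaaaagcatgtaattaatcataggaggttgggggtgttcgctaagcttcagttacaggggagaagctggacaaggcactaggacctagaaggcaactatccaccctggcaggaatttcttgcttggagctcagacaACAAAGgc
Zfand6: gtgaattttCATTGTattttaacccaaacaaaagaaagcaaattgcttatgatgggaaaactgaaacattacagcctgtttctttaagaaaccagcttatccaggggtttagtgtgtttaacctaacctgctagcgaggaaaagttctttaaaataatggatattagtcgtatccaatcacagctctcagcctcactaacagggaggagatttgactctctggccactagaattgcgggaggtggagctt
Nanog: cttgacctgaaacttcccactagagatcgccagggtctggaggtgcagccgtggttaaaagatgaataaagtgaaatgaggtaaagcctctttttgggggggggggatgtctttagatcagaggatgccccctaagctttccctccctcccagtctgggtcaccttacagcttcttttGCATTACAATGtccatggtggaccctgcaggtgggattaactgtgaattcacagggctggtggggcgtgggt

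Over the 4930522H14Rik start lay a Halo-Sox2 peak with a score of 1598, at rank 86.5 among 88898 peaks. The score is the authors' value for a peak, and rank 1 is the highest score of a list; tied peaks share a mean rank. The Halo-Sox2 peaks at Prr5l (score 757, rank 4134), 1700016D06Rik (score 651, rank 6274.5) and Dcx (score 488, rank 11654) stood above percentile 86 of that list, and none of the 4 had a counterpart in control cells. Prr5l, which encodes a partner of the mTORC2 kinase complex, holds 3 SOX cores, ending 213, 183 and 73 bases before the start, all inside the gained region. The other 3 gained promoters shown hold 1 core each. That of Dcx lies inside its gained region, while those of 4930522H14Rik and 1700016D06Rik lie in the same promoters but outside the gained regions, which end before them. The cores of Zfand6 and Nanog lie inside the lost regions. At Zfand6 the control peak scored 234, at rank 10276.5 among 72638. The control peak at Nanog had a score of 116, at percentile 63.6. Its joined SOX and octamer site lies 72 to 62 bases before the start.

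SOX cores were more frequent in gained than in lost and shared promoters. The share of promoters without a peak lay inside the interval of the gained ones. Of 373 gained promoters, 153 (41.0%, Wilson 95% interval 36.1 to 46.1%) held CATTGT or CTTTGT on either strand of the 300-base window, 250 bases before to 50 after the start. The share was 111 of 423 lost promoters (26.2%, 22.3 to 30.6%), 2217 of 12406 shared promoters (17.9%, 17.2 to 18.6%) and 2983 of 8060 promoters without a peak (37.0%, 36.0 to 38.1%). Over all 21263 promoters of protein-coding genes it was 25.7%. A promoter was shared where any shared region overlapped it. The intervals cover counting error only, and starts of a single gene can share bases: the 373 gained promoters belong to 344 genes.

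GC content differs between the classes and moves with the share of such AT-rich letters. The median GC content was 55.3% in both gained and lost promoters, 62.3% in shared promoters and 47.0% in promoters without a peak. Within each quartile of GC content the gained promoters had the highest share. In the lowest quartile it was 54.8% of 93 gained promoters, against 45.9% of lost, 36.9% of shared and 44.2% of peakless promoters. In the third quartile it was 40.2% of 82 gained promoters, against 18.8, 17.2 and 20.3% in the same order. The mean of the 4 quartile shares was 40.0% for gained, 25.9% for lost, 23.0% for shared and 25.9% for peakless promoters. Only in the third quartile were the intervals of gained and lost promoters apart.

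**Figure D1:**
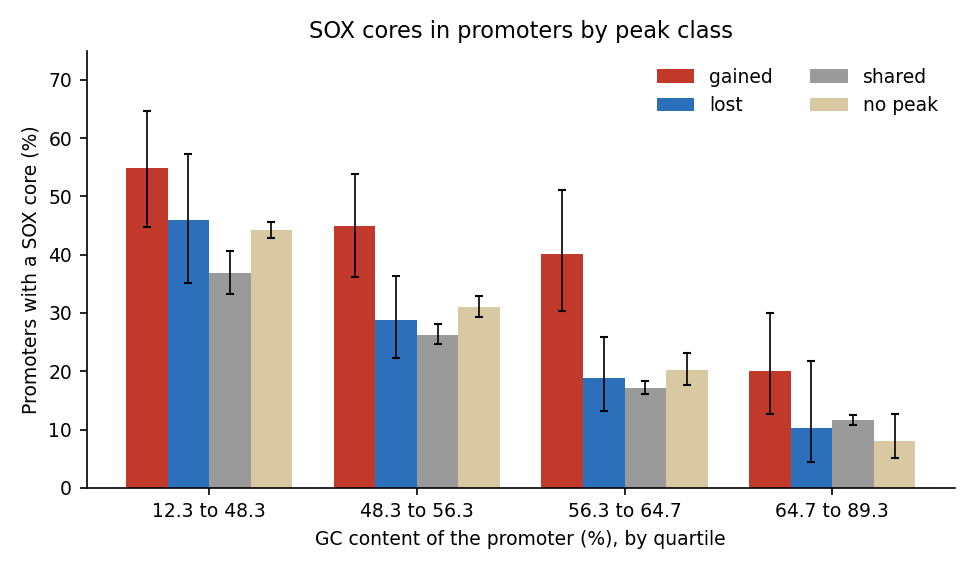
Share of protein-coding promoters (%, vertical axis) that hold a SOX core, by quartile of promoter GC content (%, horizontal axis) and by peak class. Bars are shares and error bars Wilson 95% intervals. The gained bar is the highest of its quartile in all 4 quartiles, from 54.8% at low GC to 20.0% at high GC.

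All 2080 hexamers, each counted with its reverse complement, were ranked by the share of promoters holding them in the gained class minus that in the lost class, as means over the GC quartiles. CTTTGT ranked 3 (29.9 against 20.4%, a difference of 9.45 points) and CATTGT ranked 4 (16.4 against 7.18%, 9.23 points). GAGGGG ranked 1, at 50.9 against 39.8%, and AACAGA ranked 2, at 20.2 against 10.6%. Set against shared promoters, GAGGGG ranked 1, CTTTGT 2 and CATTGT 21. At the other end, TGGCTC was the hexamer most in favour of lost promoters, with 20.0% of gained against 31.5% of lost, a difference of -11.4 points. ACTTCA (-9.49 points) and CCACCC (-9.45 points) came next. Differences as large as those of the SOX cores thus also ran the other way.

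Part of these cores lay outside the peaks, since a gained region covered a median of 190 of the 300 bases, a lost region 205 and a shared one 300. Cores wholly inside the region were found in 118 of 373 gained promoters (31.6%, 27.1 to 36.5%), 68 of 423 lost promoters (16.1%, 12.9 to 19.9%) and 1986 of 12406 shared promoters (16.0%, 15.4 to 16.7%). Per kb of promoter covered by a region there were 2.33 cores in gained, 0.970 in lost and 0.645 in shared promoters. Per kb not covered the values were 1.25, 1.28 and 1.14. The excess of cores in the gained class thus lay in the bases under the peaks. These densities were not adjusted for GC content.

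Cores were also counted by the level of the peaks. Gained promoters whose peak lay above the median percentile of their class held a core in 84 of 181 cases (46.4%, 39.3 to 53.7%), and the others in 69 of 192 (35.9%, 29.5 to 42.9%), intervals that overlap. Median GC contents of these sets were 52.3 and 57.7%, and the means over GC quartiles were 42.4 and 34.6%. The same division of lost promoters gave 28.6 and 24.0%, and 26.2 and 27.1% as means over GC quartiles, where the order turned.

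Among shared promoters whose region ranked more than 25 percentile points higher in the Halo-Sox2 list than in the control list, 128 of 535 (23.9%, 20.5 to 27.7%) held a core. The share was 17.6% of the 11195 promoters between and 17.5% of the 676 shifted as far down. Median GC contents of these 3 sets were 62.7, 62.3 and 59.3%, and the means over GC quartiles were 32.8, 22.7 and 19.9%. A match of letters is a description of the sequence, not a bound site.

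Other motifs were counted in the same windows, on both strands. The octamer ATGCAAAT, bound by Oct4, was present in 4 gained (1.07%) and 10 lost (2.36%) promoters, against 1.66% of all. The joined site, a SOX core followed after 1 base by ATGC on the same strand, was in 0 of 373 gained promoters, which allows a share of up to 0.804% as 3 counts of the total, and 1.02% as the Wilson upper limit. It was in 3 lost promoters, a pair of overlapping Nanog windows and 1 of the hindbrain patterning gene Hoxb1, and in 0.263% of all promoters. Promoters without a peak held it in 0.583% of cases and shared ones in 0.0484%. The AP-1 letters TGANTCA were in 10.2% of gained and 10.4% of lost promoters (6.99% of all). They were in 11.1% of promoters without a peak and 4.09% of shared ones. The Klf letters GGGNGTGG were in 19.6 and 20.8% (19.4% of all), and the Esrrb letters TCAAGGTCA in 2 gained and 1 lost promoter (0.334% of all). These shares of other motifs were not adjusted for GC content.

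Over the genome, merging gave 115667 regions. Of these, 43843 were gained (37.9%, 37.6 to 38.2%), 27234 were lost (23.5%, 23.3 to 23.8%) and 44590 were shared (38.6%, 38.3 to 38.8%). Gained regions thus outnumbered lost ones 1.61 times. That surplus follows the length of the lists, 88898 Halo-Sox2 against 72638 control peaks: with the 72638 highest-scoring peaks of each list there were 33363 gained and 32785 lost regions. At that size 1.78% of gained and 5.05% of lost regions lay at gene starts, and 51.2 and 41.2% in gene bodies.

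Gained regions were wider and ranked higher than lost ones. Their median width was 398 bp (quartiles 273 and 590 bp), against 312 bp (241 and 440 bp) for lost and 741 bp (524 and 1016 bp) for shared regions. Within the Halo-Sox2 list, the median percentile was 41.8 for gained and 59.6 for shared regions, where percentile 100 is the highest score. Within the control list it was 29.3 for lost and 66.1 for shared regions. The highest decile of the Halo-Sox2 list held 2752 gained regions, and that of the control list 109 lost regions.

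Peak by peak, 65.8% of Halo-Sox2 peaks in the lowest score decile had no control counterpart, and 30.9% (30.0 to 31.9%) in the highest. The control list started higher, at 76.7% in its lowest decile, and ended near 0, with 109 of 7263 peaks (1.25 to 1.81%) in its highest. A strong control peak was therefore nearly always found with Halo-Sox2, while many strong Halo-Sox2 peaks had no peak in the control. Most gained regions lay away from control peaks: 7.59% were within 1 kb of one, and the median distance to the nearest was 10.3 kb. For lost regions and Halo-Sox2 peaks the values were 9.47% and 8.24 kb. Where a shared region had 1 peak from each list (43380 regions), the median width was 615 bp with Halo-Sox2 and 591 bp in the control, and the Halo-Sox2 peak was the wider in 52.3%.

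**Figure D2:**
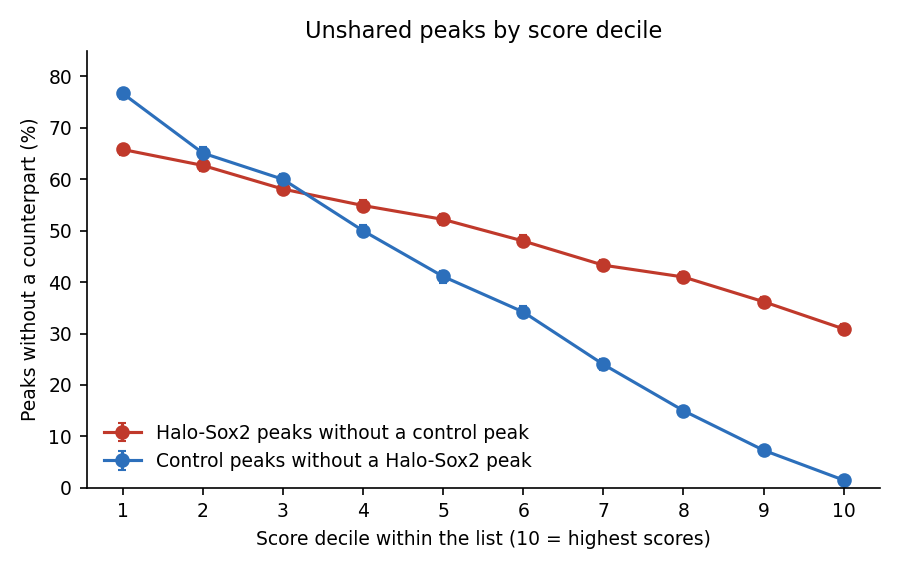
Share of peaks without an overlapping peak in the other list (%, vertical axis) by score decile within a list (horizontal axis, 10 is highest). Error bars are Wilson 95% intervals. The Halo-Sox2 line falls from 65.8 to 30.9%, the control line from 76.7% to 109 of 7263 peaks.

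Gene starts were the most alike part of the genome. For 4395 protein-coding genes without a transcription start in the annotation, either end of the gene counted as a start. Of the regions with a midpoint within 1 kb of a start of a protein-coding gene, 13204 of 15259 (86.5%) were shared, 6.76% gained and 6.70% lost. Shared regions lay there in 29.6% of cases (29.2 to 30.0%), gained regions in 2.35% (1032 regions) and lost regions in 3.76% (3.54 to 3.99%). Inside the bodies of protein-coding genes, away from starts, lay 51.0% (50.5 to 51.5%) of gained, 40.9% (40.3 to 41.5%) of lost and 33.5% of shared regions. The annotation used gives no exons, so exon and intron could not be told apart.

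With distance from gene starts the gained share rose and then fell. It was 39.7% of regions at 1 to 5 kb, 45.2% at 50 to 100 kb and 47.0% of 22333 regions at 100 to 500 kb. Beyond 500 kb it was 39.6% of 4936 regions, and the lost share reached its highest value there, 36.9%, against 21.7 to 26.6% between 1 and 500 kb. The gained share was thus highest at 100 to 500 kb and the lost share beyond 500 kb, where gained regions still outnumbered lost ones. Outside protein-coding genes and away from starts lay 46.6% of gained and 55.4% of lost regions. The median distance to a start was similar, at 39631 bp for gained and 36775 bp for lost regions.

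**Figure D3:**
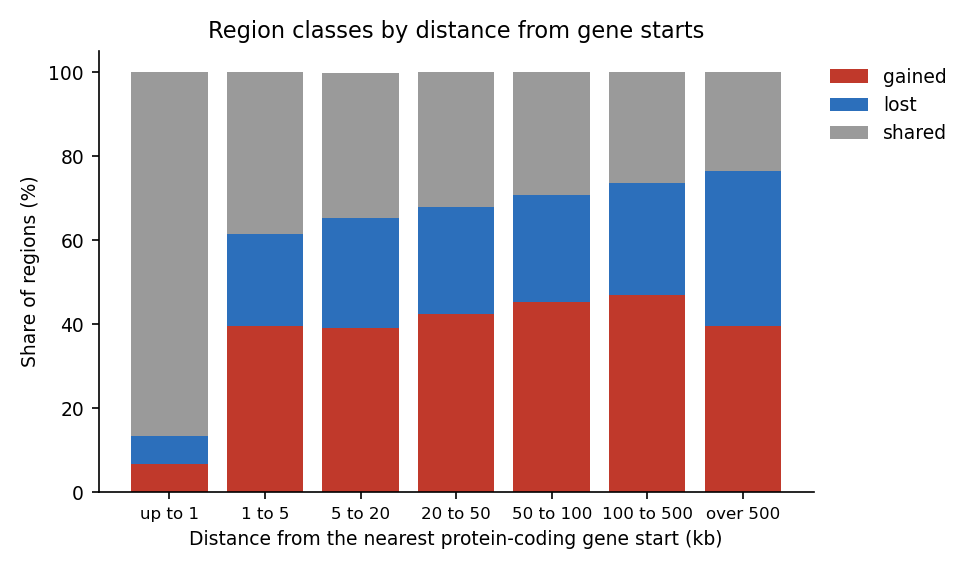
Share of gained, lost and shared regions (%, stacked, vertical axis) by distance of the region midpoint from the nearest protein-coding gene start (kb, horizontal axis). Within 1 kb, 86.5% of regions are shared. Beyond 500 kb, 39.6% are gained and 36.9% lost.

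The highest-ranked gained regions were strong peaks, and most lay on chromosome 8. The first, on chromosome 8 from 60899930 to 60900921, lies inside Hpf1, whose product directs PARP enzymes to serines of histones, and had a score of 2444 and rank 9. The next lies inside the cadherin gene Cdh11 (chromosome 8, 102726373 to 102727300, score 2258, rank 14). Unc5d, a netrin receptor gene, held one (chromosome 8, 28827294 to 28828081, score 1996, rank 22), and so did Csmd1, a gene of a large membrane protein of the brain (chromosome 8, 17121020 to 17121827, score 1909, rank 30).

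The next lay 53.4 kb outside Frmd4a, a gene of a scaffold protein of cell polarity, on chromosome 2 (rank 33). Ranks 36, 38, 40 and 43.5 lay outside genes, nearest to Cyp3a63-ps, Gm39153, Gm31135 and Gm45940, and rank 46 lay inside Dennd1b, which encodes an exchange factor for Rab GTPases. All 10 ranked in the first 46 of the Halo-Sox2 list, and no control peak overlapped them. Of the 10, 6 lie on chromosome 8.

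The highest-ranked lost regions stood lower in their list. The first, on chromosome 10 from 11491832 to 11492211 and 16.9 kb from a snoRNA gene, had a score of 958 and rank 59 of the control list. The second lay 97.2 kb outside the cadherin gene Cdh19 (chromosome 1, 110790484 to 110791094, score 594, rank 644). The others of the first 10 ranked from 1821.5 to 3113. They included a region inside the lncRNA gene Gm26510, 47325 bp upstream of a start of Tgif1, a repressor of TGF-beta signalling, and regions inside Cdh8, Rp1 and the Igh locus. Only 3 of these 10 lost regions lay inside protein-coding genes or Igh, and none lay within 1 kb of a gene start.

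At gene starts, 1038 of 21887 protein-coding genes (4.74%) had a gained region within 1 kb and 1035 (4.73%) a lost one. In 504 and 620 of these genes, no shared region lay within 1 kb as well. Behind 4930522H14Rik, the highest-ranked gained regions at starts were at Ubxn2b (score 1129, rank 790.5), Gm14279 (score 1068, rank 1045) and Arhgef7, a gene of a Rac and Cdc42 exchange factor (score 984, rank 1540.5, 329 bp upstream). Next came Trhr, the thyrotropin-releasing hormone receptor (score 946), Hpgd, which inactivates prostaglandins (score 885), the mucin gene Muc13 (score 789), Sft2d3 (771), Vit (765) and Prr5l (757). These 10 regions ranked between 86.5 and 4134 in the Halo-Sox2 list. At Ubxn2b, Trhr, Sft2d3 and Vit either end of the gene counted as a start, so the region may lie at the 3′ end.

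The 10 highest-ranked lost regions at starts ranked between 5560.5 and 12723 in the control list. The first was at Slc25a32, which encodes a mitochondrial folate carrier (score 315). Kctd4 (285, 31 bp from an end of the gene), the potassium channel gene Kcnu1 (272), Cyp4x1 (255) and Rab4a, a GTPase of recycling endosomes (250), followed. Rgs12 (240), Zfand6 (234), Plac8 (231), Sel1l2 (225) and the synaptic scaffold gene Magi2 (206) completed the 10. At Slc25a32, Kctd4, Kcnu1, Cyp4x1 and Rab4a either end of the gene counted as a start, so these regions may lie at the 3′ end. The median distance from midpoint to start was 409 bp for gained, 300 bp for lost and 149 bp for shared regions. Where a shared region also lies at a start, a gained or lost region cannot overlap it. The gap to shared regions is thus in part fixed by how the classes are defined.

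Shared regions kept their order best at gene starts. Scores were ranked among the 44590 shared regions alone, so that both rankings had the same length. Pearson's r between the percentiles, given as a description over regions of the same libraries, was 0.58 for all shared regions, 0.82 at the 13204 gene starts, 0.45 in gene bodies and 0.44 outside. A shift of more than 25 percentile points toward Halo-Sox2 was seen in 6366 regions (14.3%) and as large a shift toward the control in 6106 (13.7%). At gene starts these shares were 4.75 and 5.93%, in gene bodies 19.3 and 15.0%, and outside 17.3 and 18.7%. Gene bodies were thus the context with more upward than downward shifts. The balance rests on the ranking: with percentiles taken in the whole lists, which differ in length, 10.6% of shared regions moved up and 19.2% down.

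Among shared regions above percentile 50 in either list, the largest upward shifts ran nearly from the bottom of the control to the top of the Halo-Sox2 list. The region inside Adgrg2, an adhesion receptor gene on chromosome X (160412541 to 160413569), had scores of 1516 with Halo-Sox2 and 14 in the control, a shift of 99.6 points. Inside Ism1, which encodes a secreted protein of the isthmin family, the scores were 1246 and 19 (98.8 points). Beside Terf2ip, whose product Rap1 sits at telomeres, they were 1702 and 22 (98.3 points). The remaining 5 lay nearest to Tns3, Gm39050 and Gm33597 and inside D230025D16Rik and Unc5d, with shifts between 97.1 and 98.1 points. Scores of the 2 lists have no common scale, so only the ranks are compared.

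The largest downward shifts lay mainly outside genes. The first was on chromosome 4 from 26944363 to 26945264, 86.8 kb from Gm42264, with scores of 31 with Halo-Sox2 and 512 in the control (a shift of -94.7 points). Others lay 8284 bp upstream of Marchf1, which encodes a ubiquitin ligase (24 and 414, -93.2 points), and 37844 bp upstream of a start of Vcan, the gene of the matrix proteoglycan versican (39 and 515, -92.4 points). Of the 8, 1 lay inside a protein-coding gene, Kl, which encodes the FGF23 co-receptor klotho (31 and 410, -91.4 points).

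The regions at the very top were the same in both lists. Ranks 1 and 2 of each list were a pair of regions of the mitochondrial genome. Next by mean rank came a region inside the pseudogene Gm10060 (ranks 3 with Halo-Sox2 and 4 in the control), one inside Lars2 (5 and 3) and one inside Myo3a (4 and 5).

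Chromosome 8 took an outsized part of the strongest gained regions. It held 6.72% of all regions and 6.21% of gained ones, yet 33 of the 100 highest-ranked gained regions, 83 of the highest 500 and 135 of the highest 1000. Of the 100 highest-ranked lost regions, 4 lay there. The chromosome was also rich in strong peaks in general, with 9.94% of the top decile of Halo-Sox2 peaks and 9.67% of that of control peaks. Its gained share of 35.0% was among the lowest, since the chromosomes 1 to 19 and X ranged from 34.7% (chromosome 17) to 41.0% (chromosome 16). The copy number of chromosome 8 in the 2 lines was not tested.

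**Figure D4:**
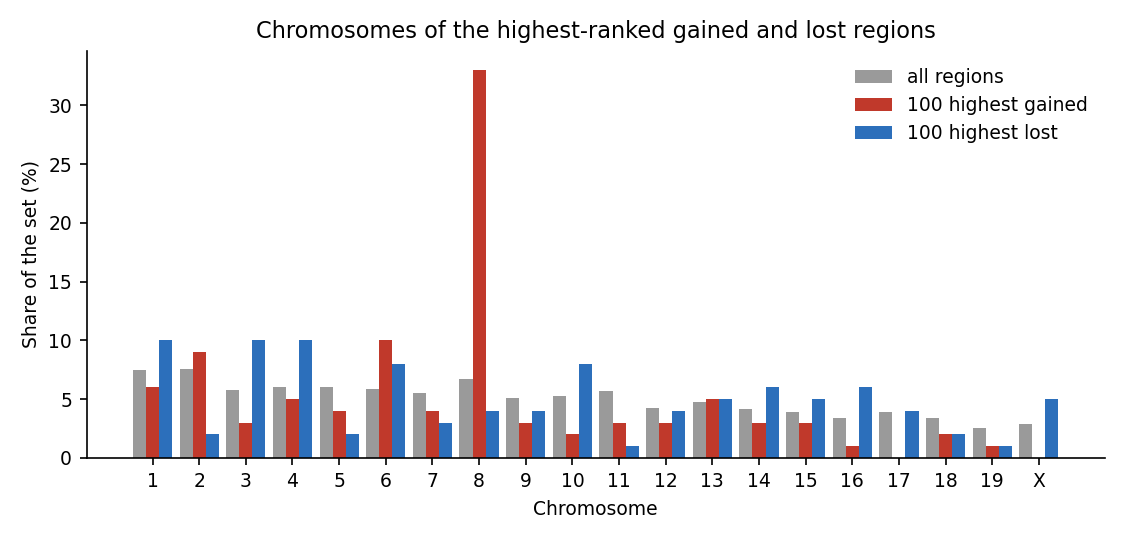
Share (%, vertical axis) of all regions, of the 100 highest-ranked gained and of the 100 highest-ranked lost regions on each chromosome (horizontal axis). Chromosome 8 holds 33 of the 100 highest gained regions and 6.72% of all regions.

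Long genes held the most gained regions. Auts2, linked to neurodevelopment, held 40 gained, 18 lost and 22 shared regions over 1106 kb. Csmd1, Dab1 (an adaptor of Reelin signalling), Fhit and the teneurin gene Tenm3 held 39 gained each, with 6 to 19 lost. Nrxn3, which encodes a presynaptic neurexin, held 37 gained and 17 lost. Ntm, an adhesion gene of neurons, held 36 gained and 3 lost, and the splicing factor gene Rbfox1 35 and 4. Counts rise with length, so shares and counts per 100 kb are given as well. Of the regions inside genes over 300 kb, 47.3% were gained and 22.2% lost, against 20.8 and 15.4% in genes of up to 20 kb. Per 100 kb of gene the gained regions numbered 1.78 in the former and 2.22 in the latter, the opposite order. The highest value was 2.53, in genes of 100 to 300 kb. The share also depends on the shared regions, which were most of those in genes of up to 20 kb (6103 shared, 1991 gained and 1468 lost).

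The genes holding the most lost regions were Macrod2 (26 lost, 31 gained), Cbfa2t2 (25 lost, 0 gained), Pde4d (23 and 30), the protocadherin-cluster models Gm37013, Gm38666 and Gm38667 (21, 20 and 20 lost, 10 gained each, overlapping models of a single locus), Gpc5 (20 and 16) and Pard3 (19 and 30). Cbfa2t2, which encodes a corepressor that binds Prdm14 in pluripotent cells, differed from the rest by its length of 103 kb and by 24.2 lost regions per 100 kb. Its 25 lost regions had control scores from 14 to 106, at a median percentile of 8.73, and 14 of them followed each other over 25.3 kb without a gained or shared region between. The run is thus made of weak control peaks packed closely.

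Other long runs of a single class lay elsewhere. Gained runs of 15 regions spanned 695 kb on chromosome 1 (76041391 to 76736437) and 676 kb on chromosome 3 (41856394 to 42532409), both without a protein-coding gene, at median percentiles of 62.0 and 68.8. A gained run of 14 covered Ikbke and Srgap2, and one of 13 lay in Rora, a nuclear receptor gene. A lost run of 14 covered the complement factor H-related genes Cfhr3 and Cfhr2 with Gm4788, and 2 of the 3 runs of 11 covered the casein genes Csn1s2b and Csn3 and the antiviral genes Oas2 and Oas3.

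In windows of 1 Mb with at least 20 regions (2153 windows), the gained share had a median of 38.4% with 21.2% at percentile 5 and 60.0% at percentile 95. The window with the highest share, 18 of 20 regions, lies on chromosome 5 from 51000001 to 52000000 and holds the metabolic coactivator gene Ppargc1a. The window with the highest lost share, 26 of 33, lies on chromosome 5 from 87000001 to 88000000 and holds 21 protein-coding genes, among them Ugt2b, sulfotransferase and casein genes. The next 4 windows by lost share hold no protein-coding gene.

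Gene groups differed in the mix of regions near them. Of 92172 regions within 50 kb of any protein-coding gene, 36.7% were gained and 21.8% lost, and the groups are read against these shares. Near 28 long adhesion and synapse genes, 593 of 1240 regions were gained (47.8%, 45.1 to 50.6%) and 23.0% lost. Near 29 axon guidance genes, such as the Robo, Slit, Unc5 and semaphorin genes, 280 of 595 were gained (47.1%, 43.1 to 51.1%) and 21.2% lost. These groups consist largely of long genes, whose bodies have a high gained share in general.

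Near 30 neural genes the gained share, 37.5% (32.5 to 42.7%), was close to that of all genes, and the lost share, 16.1%, was lower. Near 29 pluripotency genes 28.6% (24.4 to 33.4%) were gained and 24.2% lost. The shares gained were 27.5% near formative and primed genes, 23.3% near mesendoderm genes, 30.3% (24.4 to 36.8%) near trophoblast genes and 41.2% (35.2 to 47.6%) near primitive endoderm genes, the last 2 with the share of all genes inside their intervals. For the signalling groups the share of all genes lies inside each interval: 33.8% gained for LIF and STAT3 (27.6 to 40.7%), 32.5% for FGF and ERK (27.7 to 37.7%), 31.2% for Nodal and BMP (25.8 to 37.0%) and 31.9% for Wnt (27.0 to 37.3%). The same held for the SOX family (36.0%, 30.3 to 42.2%). Housekeeping groups had low gained shares, with 21.6% for cell cycle and housekeeping genes, 28.2% for glycolysis and 23.0% for ribosomal proteins, and high shared shares of 57.5, 55.3 and 57.2%. In these 3 groups 24 of 26, 16 of 16 and 75 of 80 genes had a shared region at a start. The same was true of 22 of 29 pluripotency genes and 13477 of all 21887 genes. The shares were not adjusted for regions at gene starts, which are mostly shared. Genes of chromatin remodelling had 32.5% gained (28.2 to 37.2%).

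Some clustered gene families had more lost than gained regions near them. Near the olfactory receptor genes 317 of 884 regions were lost (35.9%) and 254 gained (28.7%). Near the vomeronasal receptor genes 163 of 369 were lost (44.2%) and 88 gained (23.8%). Near the clustered protocadherins 26 of 107 were lost and 13 gained. For zinc finger genes named Zfp the gained share was 27.4% and for core histones 25.7%, with shared shares of 51.8 and 61.4%. Near the Hox clusters 26.5% were gained and 19.1% lost. Near keratins 35 of 82 regions were gained (42.7%, 32.5 to 53.5%) and 25 lost (30.5%), and near defensins 25 of 82 were gained and 26 lost.

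**Figure D5:**
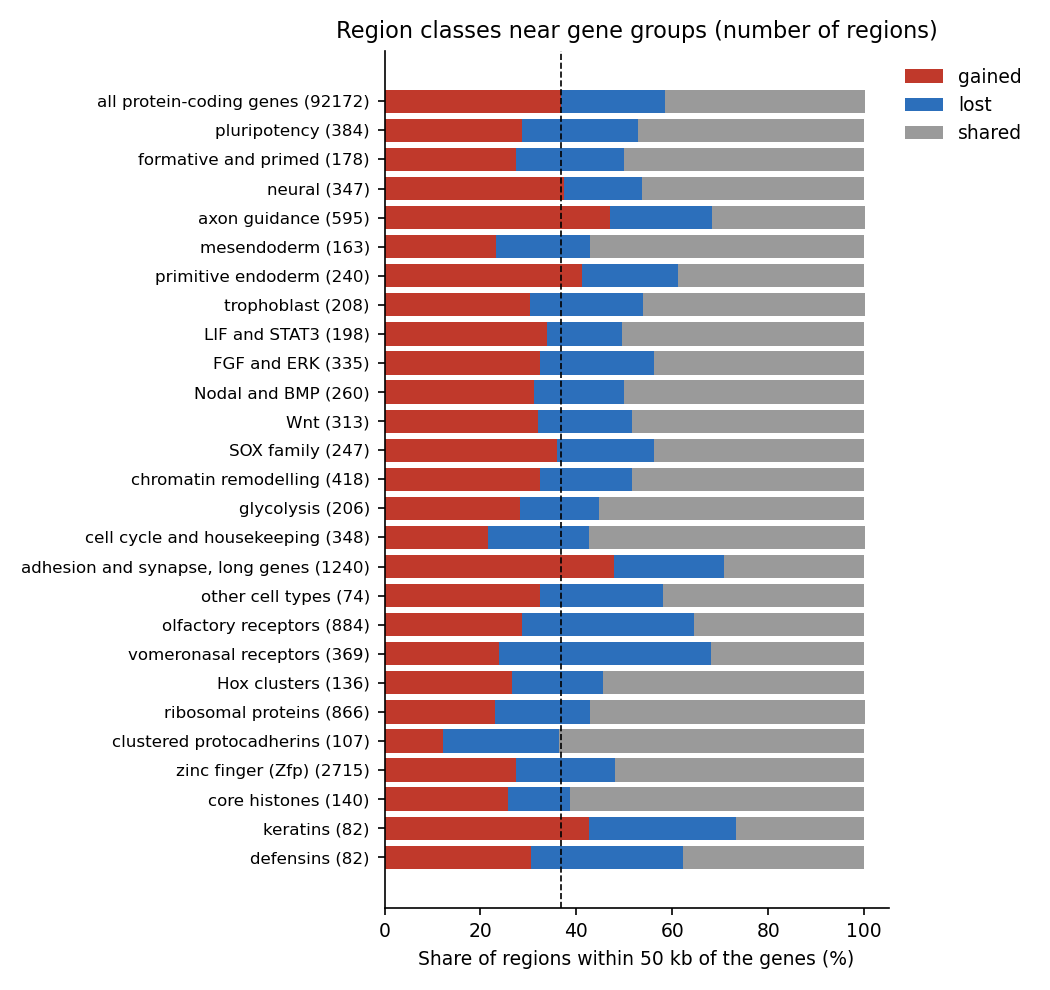
Share of gained, lost and shared regions (%, stacked, horizontal axis) within 50 kb of the genes of each group (vertical axis, number of regions in parentheses). The dashed line is the gained share near all protein-coding genes, 36.7%. Axon guidance (47.1%) and long adhesion genes (47.8%) lie to its right, cell cycle and housekeeping genes (21.6%) to its left.

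Gained and lost regions at starts of listed genes are few, and they are read against the 4.74% of all protein-coding genes with a gained and the 4.73% with a lost region within 1 kb of a start. Among 30 neural genes, 5 had a gained region there and 1 a lost one. Fabp7, which encodes a fatty acid binding protein of radial glia, had a gained region 282 bp upstream (chromosome 10, 57784267 to 57785015, score 391, percentile 81.0), and the nearest shared region was 9938 bp away. Dcx had one 239 bp downstream (score 488, percentile 86.9). Those at Sox3, Pou3f3 and Neurod1 were weak, at percentiles of 3.18, 9.65 and 13.6, and stood beside shared regions. At Sox3 either end of the gene counted as a start, so the region may lie at the 3′ end. The lost one was at Zic1.

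Beside the same shares of all genes, 4.74 and 4.73%, 5 of 18 mesendoderm genes had a gained region at a start (Lhx1, Nodal, Wnt3a, Fgf8 and Hand1) and 1 a lost one (Msgn1). At Lhx1, a LIM homeobox gene, it lay 5 bp from the start at percentile 66.6, and at Nodal, the TGF-beta family ligand, 471 bp downstream at percentile 24.1. Those at Wnt3a, Fgf8 and Hand1 were weak, at percentiles of 3.18, 5.48 and 5.81, the last 2 beside shared regions. Of 18 trophoblast genes, 4 had a gained region (Tfap2c, Tfap2a, Plac1 and Hand1, percentiles 64.6, 50.0, 44.7 and 5.81 for the highest of each) and 2 a lost one (Plac1 and Krt8). Of 29 axon guidance genes, Sema6a (percentile 91.8) and Slit1 (31.9) had a gained and Robo2 (15.3) a lost region. At Fgf8, Hand1, Tfap2c, Sema6a and Slit1 either end of the gene counted as a start, so these regions may lie at the 3′ end. Of 28 long adhesion and synapse genes, 1 (Cntnap2) had a gained region and 6 lost ones: Cdh18, Cntn4, Dlg2, Erbb4, Magi2 and Pcdh15. Apart from that of Erbb4, these lost regions, like that of Robo2, lie at starts far inside the gene. A gene with several starts can be counted at any of them. The shares of all genes were not adjusted for this, so the comparison is not like for like.

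The pluripotency genes had 3 starts with a gained and 5 with a lost region among 29, beside 4.74 and 4.73% of all genes. At Nanog, the control peak over the promoter (chromosome 6, 122706952 to 122707596, percentile 63.6) had no Halo-Sox2 counterpart, and the nearest shared region lay 4680 bp away. That shared region (122702388 to 122703230) was strong in both lists, at percentiles 98.5 with Halo-Sox2 and 97.4 in the control. At Pou5f1, a gained region inside the gene (chromosome 17, 35509365 to 35509997, score 328) stood at percentile 75.8, and the shared region just upstream (35503671 to 35505483), where the known enhancers of the gene lie, at percentiles 86.0 with Halo-Sox2 and 60.9 in the control. Prdm14 had a gained region (percentile 29.3), Dppa5a a gained (13.7) and a lost one (53.9), and Dppa4, Esrrb and Klf4 had lost regions (25.3, 32.4 and 11.4) beside shared ones. At Prdm14, Dppa5a and Dppa4 either end of the gene counted as a start, so these regions may lie at the 3′ end.

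Klf4 also had gained regions inside the gene (chromosome 4, 55530052 to 55530850, percentile 62.9) and 11464 bp beside it (percentile 72.5). Within Esrrb, an orphan nuclear receptor gene, 5 gained regions at percentiles from 3.00 to 56.9 stood among 11 shared ones, and 1 of the shared ones (86478690 to 86479485) stood at percentile 78.8 in the control and 17.5 with Halo-Sox2. Near Fgf4, the growth factor gene driven by Sox2 and Oct4 in these cells, lay 5 gained, 6 lost and 9 shared regions. The promoter region was shared at percentiles 48.6 with Halo-Sox2 and 55.3 in the control. The strongest gained region lay 37567 bp away at percentile 86.4. A lost region lay inside the gene (chromosome 7, 144864321 to 144864670), at percentile 41.3 of the control list. Within 50 kb of Sox2 lay 15 regions, 8 gained, 2 lost and 5 shared. Over the gene itself a region of 1696 bp was shared (percentiles 81.7 with Halo-Sox2 and 64.5 in the control). The strongest control peak of the 15 was a lost one (chromosome 3, 34668294 to 34668756, percentile 87.5), and the strongest gained region lay 1333 bp from an end of the gene, at percentile 72.2. Over the gene, its reads and those of the transgene cannot be told apart.

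As a check of the cell type, 8 of 10 markers of embryonic stem cells had a peak within 1 kb of a start in each list. The markers were not the same ones: Pou5f1 had such a peak with Halo-Sox2 alone and Nanog in the control alone. That of Pou5f1 lies inside the gene, 874 bp downstream of an internal start. The shared region just upstream of Pou5f1, with peaks of both lists, was not counted, since its midpoint lies 1455 bp from the gene. Zfp42 was at percentiles 97.6 with Halo-Sox2 and 99.8 in the control, and Utf1 at 82.1 and 78.8. Tfcp2l1 was at 68.8 and 58.5. At Dppa5a the peaks were separate regions near opposite ends of the gene, a gained one at 13.7 and a lost one at 53.9. Dppa3 had none in either. Of 12 markers of liver, blood, muscle, pancreas, fibroblasts, skin and glia, 3 had such a peak with Halo-Sox2 and 4 in the control. Myod1, Col1a2 and Thy1 had one in both, at percentiles of at most 55.3, and Cd3e in the control alone.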

How the data were processed

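Peaks were called by the authors for each library separately, as the peak names show, and each deposited list gives position, name and a score per peak. The submitters' processing notes name STAR, SAMtools, MACS2 3.0.0a7, MACS3, deepTools 3.3.0 and the build mm10. The threshold of the caller and any shift of read ends are not given in the sources used here. The score column was deposited by the authors as whole numbers from 13 upward with no stated scale, and was used only within a list. The Halo-Sox2a list was not used.

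Regions, contexts, ranks and motif matches were computed in Python 3.11.15 with pandas 2.3.3, and intervals with scipy 1.17.1. The merging into classes and the searches for enclosing genes and nearest starts were checked on simulated data. Ranks, motif matches and intervals were not checked in this way. Genes came from a RefSeq table of GRCm38.p6 with 21887 protein-coding genes on the chromosomes used. A start was a RefSeq transcription start for the 17492 genes in the promoter table and either end for the other 4395. The plan had used either end of every gene. The planned motif windows at peak midpoints were replaced by promoter sequences.

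Named regions are the 10 of highest rank among gained, among lost, and among each at gene starts, the 5 shared regions of highest mean rank, the 8 largest shifts each way, the 8 genes holding most gained or lost regions, listed genes with an unshared region at a start, and Sox2, Pou5f1, Nanog, Klf4, Esrrb and Fgf4. The members, gene lists and rules were chosen with earlier results of these data known. The families chosen by symbol, the hexamer ranking, the runs, the division of promoters by peak level and the count of cores inside regions were added after the peaks had been examined.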

Additional observations from a re-analysis of the deposited data

How the results depend on the processing

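No paired analysis was possible because each group has 1 library. There was no replicate to leave out, and the depth of the libraries is unknown. Of 146 alternatives, 88 stayed within the counting interval (for counts of regions, within 1.5 times) and 58 moved, none with a test. The planned motif windows of another width were not run. The alternatives of 1 promoter a gene, the mean over GC quartiles, no chromosome 8 and cores inside the region were chosen after seeing the data. The causes of the moves were not tested, beyond what the construction of each alternative fixes.

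Shares at gene starts are given as gained, lost and shared. They were 2.56, 4.11 and 30.1% when the overlap had to cover 50% of the shorter peak, and 4.32, 6.72 and 33.6% when it had to cover 50% of both. In the latter case 49.3% of gained regions lay in gene bodies, and 12.2% of shared regions shifted up and 11.7% down. A gap of up to 500 bp gave 1.80% for gained and 3.05% for lost. Peaks above percentile 25 gave 5.65% for lost and 35.6% for shared. Peaks above percentile 50 left 22739 gained, 14123 lost and 22184 shared regions, with 3.27, 9.84 and 44.9% at gene starts and 50.0% of gained and 37.6% of lost in gene bodies. Lists of equal size gave 1.78, 5.05 and 32.2%. A start distance of 2.5 kb gave 6.02, 7.17 and 33.8%, with 48.6 and 38.8% of gained and lost in gene bodies. All genes of the table gave 5.45, 8.30 and 34.7%, with 56.9 and 46.6%. Lost regions had the higher share at gene starts in each of these settings that gave both. With percentiles in the whole list, 10.6% of shared regions shifted up and 19.2% down.

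With lists of equal size the gained share near all protein-coding genes was 30.4%. It was 42.6% for axon guidance, 42.3% for long adhesion and synapse genes, 31.7% for primitive endoderm, 30.3% for the SOX family, 30.0% for neural, 26.8% for LIF and STAT3, 25.7% for FGF and ERK, 24.9% for chromatin remodelling, 24.2% for Nodal and BMP, 24.1% for trophoblast, 22.2% for pluripotency, 20.9% for glycolysis, 19.9% for formative and primed, and 14.7% for cell cycle and housekeeping genes. Within 10 kb of a gene it was 14.5% for mesendoderm and 16.7% for cell cycle genes, and within 100 kb 37.0% for all genes. The SOX core share was 45.6% of gained and 24.2% of lost promoters with lists of equal size, 39.5 and 27.5% with 1 promoter a gene, and 41.0 and 25.7% without chromosome 8. Counting only cores inside the region gave 31.6% of gained, 16.1% of lost and 16.0% of shared promoters. Averaged over GC quartiles, the shared promoters had 23.0%.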
